A study of Mus musculus with 8 samples.

Results

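Genes that encode chromatin-modifying enzymes and their close partners were examined in bulk RNA-seq of mouse kidney after cisplatin, a platinum compound used against tumours and toxic to the cells of the proximal tubule. Members were taken by gene symbol: protein-coding genes outside chromosome Y whose symbols begin with or equal those of the HDAC, KDM, KMT, KAT, DNMT, TET, SMARC, CHD, BRD, EZH, SETD, PRMT, EHMT, SUV, EP300, CREBBP, UHRF and ARID genes. Of the 35880 genes with usable counts, 56 were members. They fall into 10 classes: 4 histone deacetylases, 4 histone acetyltransferases, 11 lysine methyltransferases, 5 lysine demethylases, 5 protein arginine methyltransferases, 7 genes of DNA methylation, 4 SMARC genes, 5 ARID genes, 9 CHD genes and 2 bromodomain (BRD) genes. A further 67 genes with matching symbols, among them Hdac2, Hdac3, Kdm6a, Kdm1a, Smarca4, Dnmt3a, Tet2, Kmt2a and Arid1a, were not analysed here. No class was therefore seen whole.

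The study compared 4 control kidneys with 4 kidneys from cisplatin-treated mice, collected 72 h after injection, to describe the response of the injured kidney. All 8 libraries were labelled as wild-type kidney. The study's methods give male C57/BL6J mice, intraperitoneal saline for the controls and a single strain and sex for both groups. The labels number the controls 1, 2, 3 and 5 and the cisplatin libraries 1, 3, 4 and 6, and nothing in them pairs the animals.

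Chromatin enzymes set how accessible and how active a stretch of DNA is. Acetyltransferases add acetyl groups to histone tails and deacetylases take them off, while lysine and arginine methyltransferases and the demethylases write and erase methyl marks that either open or silence genes. DNA methyltransferases, with UHRF1 as their guide at replication forks, copy methylation onto new DNA, and the SMARC and CHD proteins, with some of the ARID proteins, belong to machines that use ATP to slide or evict nucleosomes. In the kidney, deacetylases and bromodomain readers are well known as targets of inhibitors tried in models of acute injury and fibrosis.

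Total counts per library over the usable genes ran from 10953338 to 16701599. Levels are given as CPM, a gene's count relative to the library size after TMM scaling, a method that sets libraries to a common level by their shared genes. Cisplatin 1 had 5 counts on Y-linked genes and cisplatin 3 had 0, against 815 to 1879 in the other 6 libraries, although the methods describe male mice. The first principal component, with 73.6% of the variance, separated the groups. The second, with 16.0%, separated 5 libraries (controls 1, 2 and 3 and cisplatin 1 and 3, called the first set here) from the other 3 (control 5 and cisplatin 4 and 6, the second set). The labels do not explain these sets, which run across both groups. The tissue markers matched the labelled kidney: the summed level of 20 proximal tubule genes was 82870 to 107000 CPM in the controls.

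The promoters of 3 members with large changes are shown first because the rest of the account returns to these genes: Arid5a and Uhrf1, which rose, and Kdm1b, which fell. Each is the 250 bases before the RefSeq start site in GRCm38.p6, printed 5′ to 3′ on the gene's strand, which is the plus strand for all 3. They lie at chr1:36307483-36307732, chr17:56303087-56303336 and chr13:47043249-47043498. Capitals mark matches, on either strand, to the motifs searched: E2F (TTCCCGC with the variants TTGGCGC and also TTCGCGC as well as TTGCCGC), the CHR element (TTTGAA), AP-1 (TGACTCA) and the CCAAT box (CCAAT).
Arid5a: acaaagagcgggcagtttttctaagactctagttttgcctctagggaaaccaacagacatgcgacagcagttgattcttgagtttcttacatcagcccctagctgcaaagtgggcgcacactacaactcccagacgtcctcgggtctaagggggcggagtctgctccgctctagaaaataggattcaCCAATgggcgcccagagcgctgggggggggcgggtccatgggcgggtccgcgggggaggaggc
Uhrf1: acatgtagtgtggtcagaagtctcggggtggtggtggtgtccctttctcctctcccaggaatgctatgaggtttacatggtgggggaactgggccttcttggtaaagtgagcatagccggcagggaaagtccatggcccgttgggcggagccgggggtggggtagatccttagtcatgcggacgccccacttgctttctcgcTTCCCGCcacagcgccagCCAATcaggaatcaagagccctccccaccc
Kdm1b: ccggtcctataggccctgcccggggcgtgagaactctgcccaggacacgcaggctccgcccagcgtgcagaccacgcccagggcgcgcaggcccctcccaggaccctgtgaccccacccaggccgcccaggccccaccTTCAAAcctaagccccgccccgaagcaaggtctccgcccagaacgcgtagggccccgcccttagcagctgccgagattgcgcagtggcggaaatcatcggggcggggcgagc
The Uhrf1 window held an E2F match starting at position -48 from the start site and a CCAAT box at -30, the Arid5a window a CCAAT box at -63, and the Kdm1b window a CHR match at -112 that reads TTCAAA on the printed strand. RefSeq promoters were found for 44 members, and 39 of these lay within 1000 bases of the gene's start. Over windows that also take in 50 bases after the start, an E2F match was present in 5 of the 39 members (12.8%) and in 9.57% of all 32851 promoters. The CCAAT box was in 15 of 39 (38.5%) against 37.4%, the CHR element in 6 (15.4%) against 17.9%, and AP-1 in 2 (5.13%) against 5.2%. The members' windows had a median GC content of 62.7% against 52.7%. The shares of members with each motif were near those of all promoters, which is a rough comparison. Each member gave only the promoter nearest its start, while all promoters include several of some genes, and the GC content differed. A match is a run of letters, not a bound site.

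Most chromatin genes did not pass the test at 72 h, while a few changed several-fold. Of the 55 members with enough counts to test, 11 rose and 5 fell at an adjusted p under 0.05 (edgeR quasi-likelihood test, Benjamini-Hochberg over 9141 genes). Among all genes tested, 26.4% rose and 22.6% fell, so the members' share in either direction, 29.1%, stood below the 49.1% of all genes. By DESeq2, 12 members rose and 7 fell, where 27.5% and 25.5% of all genes did. With an added threshold of at least 1 on the absolute log2 fold change, 4 members were called higher (Arid5a, Uhrf1, Chd9 and Chd3os) and 2 lower (Chd3 and Kdm1b), where 19.2% and 15.7% of all genes were called. In 11 members every cisplatin library lay above every control, and in 5 every one lay below, against 23.7% and 22.5% of all genes. The members' median log2 fold change was -0.04, beside 0.08 for all genes. The members' median absolute log2 fold change was 0.43 against 0.73, with a median standard error (SE) of 0.21 against 0.29, and 29 members lay within 0.5 of no change. The groups of whole kidney differ in the levels of cell type markers, as described beside the results below. In such bulk samples fewer cells of a type and less RNA per cell cannot be told apart.

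**Figure D1:**
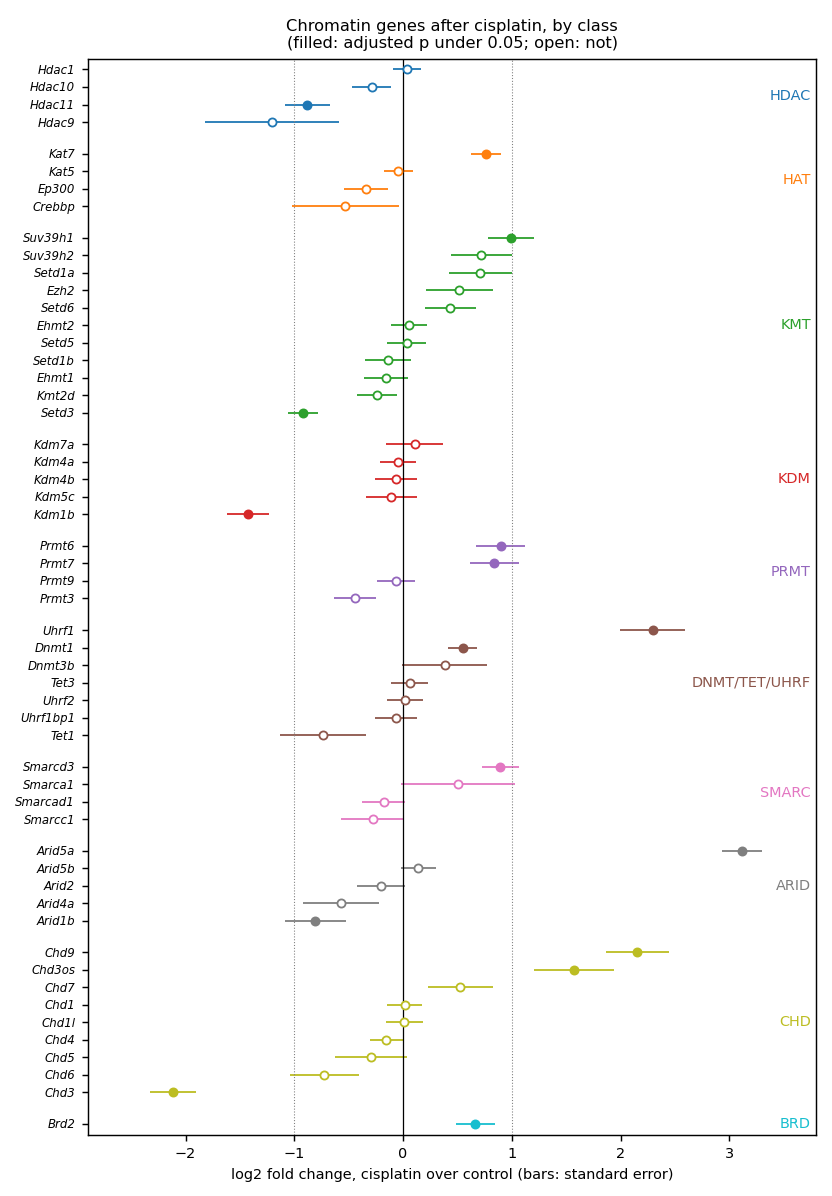
Log2 fold change of the tested members (x axis, cisplatin over control; bars, SE; 4 libraries a group) by class, with filled points where the edgeR adjusted p was under 0.05 and dotted lines at -1 and 1. Arid5a stands at 3.11 and Chd3 at -2.11, and most points are open.

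The largest rise was in an ARID gene and the largest fall in a CHD gene. Arid5a (ENSMUSG00000037447, chr1:36307733-36324029, GRCm38) encodes an AT-rich-interaction-domain protein that is also known to bind and stabilise the messages of inflammatory genes such as Il6. It measured 5.49, 6.14, 5.31 and 4.95 CPM in controls 1, 2, 3 and 5, and 42.6, 43.1, 45.0 and 59.4 CPM in cisplatin 1, 3, 4 and 6. Every cisplatin library was far above every control, with a log2 fold change of 3.11 ± 0.18 (SE, n = 4 and 4), which is 8.66-fold (edgeR adjusted p = 2.74e-06).

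The rest of the ARID class moved otherwise. Arid1b (chr17:4994332-5347656), a large DNA-binding subunit of the BAF remodelling complex, measured 115, 103, 122 and 99.7 CPM in the controls and 74.4, 95.4, 44.3 and 37.2 CPM after cisplatin. All cisplatin libraries were below the controls, but cisplatin 3 only just. The log2 fold change was -0.81 ± 0.28 (edgeR adjusted p = 0.0357), the weakest of the members that passed: it passed in 3 of the 8 fits that left out a library, and with total-library-size scaling it was -0.22 (adjusted p = 0.556, edgeR). Without cisplatin 4 the adjusted p was 0.0898 and without cisplatin 6 it was 0.0711, and without control 1, 2 or 3 it ran from 0.0637 to 0.0860 (edgeR). Arid5b, a partner of a lysine demethylase, stood at 0.14 ± 0.16, Arid2, of the PBAF complex, at -0.20 ± 0.22 and Arid4a, of the SIN3 corepressor, at -0.57 ± 0.35, none of which passed.

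Among the CHD remodellers, Chd3 and Chd9 changed in opposite directions. Chd3 (ENSMUSG00000018474, chr11:69343273-69369406), an ATPase of the NuRD complex that couples remodelling to histone deacetylation, measured 972, 765, 1131 and 1241 CPM in the controls and 180.0, 262, 250.0 and 259 CPM after cisplatin. The groups were far apart, with cisplatin 1 the lowest, and the log2 fold change was -2.11 ± 0.21, that is 4.33-fold lower (edgeR adjusted p = 4.94e-05). Chd4, the other main NuRD ATPase, measured 383 ± 16.0 CPM (SD, n = 4) in the controls and 344 ± 50.8 CPM after cisplatin, a log2 fold change of -0.15 ± 0.15 that did not pass (edgeR adjusted p = 0.431). Per kilobase of listed exon length, mean Chd3 was at 121.7 CPM and Chd4 at 47.7 CPM in the controls. After cisplatin they were at 28.1 and 42.9 CPM, so their order was turned.

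Chd9 (ENSMUSG00000056608, chr8:90828352-91054516), a remodeller known from bone-forming progenitor cells, measured 97.4, 68.0, 72.3 and 67.7 CPM in the controls and 350.0, 318, 508 and 184 CPM after cisplatin. The cisplatin libraries were all higher but spread widely, with cisplatin 4 highest and cisplatin 6 lowest, both of the second set. The log2 fold change was 2.15 ± 0.29, that is 4.45-fold (edgeR adjusted p = 0.000270). Chd3os (ENSMUSG00000043419, chr11:69340461-69342641) is a short gene next to Chd3 that is taken in by its symbol and is not an enzyme of known function. It was low throughout, at 2.21, 2.87, 2.20 and 2.83 CPM in the controls and 6.004, 3.63, 9.66 and 10.9 CPM after cisplatin, and the groups did not overlap, with cisplatin 3 nearest to the controls.

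Its log2 fold change was 1.57 ± 0.37 (edgeR adjusted p = 0.00611), opposite in direction to that of Chd3, with which it shares no exon bases in GENCODE M21. Tested against a log2 fold change of 1 in place of 0, Chd3os alone of the 6 called members no longer passed (edgeR adjusted p = 0.105), and in the first set alone it was 0.93 (adjusted p = 0.0336, edgeR), below the fold threshold of a call. The other CHD genes did not pass by edgeR. Chd1, which reads a methyl mark of active promoters, stood at 0.02 ± 0.16, Chd1l, recruited to DNA damage by poly(ADP-ribose), at 0.01 ± 0.17, the largely neuronal Chd5, at 0.546 to 1.14 CPM, at -0.30 ± 0.33, and Chd6 at -0.72 ± 0.31. Chd7, the gene of CHARGE syndrome, stood at 0.53 ± 0.30.

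In the DNA methylation class, the maintenance pair rose and the TET oxidases did not pass. Uhrf1 (ENSMUSG00000001228, chr17:56303321-56323486), whose protein binds hemimethylated DNA behind the replication fork and recruits DNMT1, measured 8.24, 3.11, 7.28 and 4.403 CPM in the controls and 25.6, 29.4, 26.2 and 32.04 CPM after cisplatin. The controls varied widely among themselves, yet all lay far below the cisplatin libraries. The log2 fold change was 2.30 ± 0.30, that is 4.91-fold (edgeR adjusted p = 0.000216). Dnmt1 (chr9:20907209-20959888), the maintenance methyltransferase, measured 54.7, 45.5, 52.0 and 54.6 CPM in the controls and 70.9, 85.7, 72.2 and 73.4 CPM after cisplatin. Its groups did not overlap and its log2 fold change was a smaller 0.55 ± 0.13 (edgeR adjusted p = 0.00760).

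The de novo enzyme Dnmt3b was low, at 3.67 ± 1.19 CPM (SD, n = 4) in the controls and 4.75 ± 2.19 CPM after cisplatin, and did not pass (edgeR adjusted p = 0.442). Tet3, which oxidises methylated cytosine, stood at 0.06 ± 0.17 and its relative Tet1 at -0.74 ± 0.40. Uhrf2 measured 55.1 ± 5.36 CPM in the controls and 55.7 ± 9.65 CPM after cisplatin, a log2 fold change of 0.02 ± 0.16. Uhrf1bp1, a lipid-transfer protein that the symbol rule takes in although it is no chromatin enzyme, stood at -0.06 ± 0.19.

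Lysine methyltransferases gave 1 gene that rose and 1 that fell among 11, where 26.4% and 22.6% of all genes did. Suv39h1 (chrX:8061171-8074760), which writes the methyl mark of silent heterochromatin, measured 13.5, 20.02, 15.1 and 14.5 CPM in the controls and 25.4, 25.7, 39.5 and 34.8 CPM after cisplatin. The groups did not overlap and the second set held the higher cisplatin values, with a log2 fold change of 0.99 ± 0.21 (edgeR adjusted p = 0.00377), and of 0.60 in the first set alone (adjusted p = 0.0237, edgeR). Gm14820 on the opposite strand shares 14.55% of the exon bases of Suv39h1, and the strand setting is not known. The paralogue Suv39h2 was much lower, at 2.48, 3.11, 1.82 and 1.65 CPM against 3.91, 3.79, 3.81 and 3.41 CPM. Here too the groups did not overlap, but the log2 fold change of 0.72 ± 0.28 missed the threshold (edgeR adjusted p = 0.0592).

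Setd3 (chr12:108106431-108179314), named for its SET domain but known as the enzyme that methylates a histidine of actin, measured 271, 296, 264 and 259 CPM in the controls and 153, 164, 132 and 127 CPM after cisplatin. Every cisplatin library was well below every control, and both groups were tight. The log2 fold change was -0.92 ± 0.14 (edgeR adjusted p = 0.000578), although with total-library-size scaling it was -0.35 (adjusted p = 0.0885, edgeR).

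Ezh2, the catalytic subunit of Polycomb repressive complex 2, measured 15.0, 12.2, 19.8 and 11.0 CPM in the controls and 30.1, 24.1, 12.2 and 16.4 CPM after cisplatin. Its groups overlapped: cisplatin 1 and 3 were above every control, and cisplatin 4 and 6 were inside the controls' range. The log2 fold change of 0.52 ± 0.31 did not pass (edgeR adjusted p = 0.187), and it was 0.74 in the first set alone (adjusted p = 0.0156, edgeR) and -0.02 without cisplatin 1 and 3 (adjusted p = 0.964, edgeR). Setd1a, a writer of the mark of active promoters, stood at 0.71 ± 0.29, with 51.9% of its exon bases shared with Gm49388 on the same strand, so the reads of these 2 genes may have been split. Setd6, which methylates a subunit of NF-kB, stood at 0.43 ± 0.24. Ehmt2, Setd5, Setd1b, Ehmt1 and Kmt2d lay between -0.24 and 0.05.

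For the genes of copying and silencing chromatin, the level of cell cycle genes is given beside these values. Of 40 listed genes of dividing cells, 27 were tested, of which 13 rose and 0 fell by edgeR, with a median log2 fold change of 0.91, and 1 fell by DESeq2 and 1 at an unadjusted p under 0.05. Their summed level was 183 to 231 CPM in the controls and 304 to 575 CPM after cisplatin. Mcm7, a subunit of the replicative helicase, measured 35.3 to 40.3 CPM in the controls and 77.4 to 178 CPM after cisplatin. The part of these genes in the rise of Uhrf1, Dnmt1 and Suv39h1 was not tested.

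Of 5 lysine demethylases, Kdm1b alone passed, where 49.1% of all genes did. Kdm1b (ENSMUSG00000038080, chr13:47043499-47085279), a flavin-dependent demethylase that works with DNA methylation in oocytes, measured 84.9, 87.8, 74.3 and 78.4 CPM in the controls and 37.9, 35.7, 22.5 and 24.8 CPM after cisplatin. The groups were widely separated, with the second set lowest, and the log2 fold change was -1.43 ± 0.19, that is 2.69-fold lower (edgeR adjusted p = 0.000290). With total-library-size scaling it was -0.85 (adjusted p = 0.00928, edgeR), which passed but was no longer called. Kdm4a and Kdm4b, which erase marks of silent chromatin, stood at -0.05 ± 0.17 and -0.07 ± 0.19, and Kdm7a at 0.11 ± 0.26.

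Kdm5c, on the X chromosome, removes the methyl mark of active promoters and has a Y-linked partner, Kdm5d, which the rule leaves out. Kdm5c measured 95.5, 92.9, 126 and 139 CPM in the controls and 116, 144, 86.9 and 73.5 CPM after cisplatin, a log2 fold change of -0.11 ± 0.23 that did not pass (edgeR adjusted p = 0.726). Among the cisplatin libraries it was higher in cisplatin 1 and 3, which lacked Y-linked counts, than in cisplatin 4 and 6. Cisplatin 1 and 3 are also the cisplatin libraries of the first set, so Y-linked counts and library set cannot be told apart here. Kdm5d itself measured 24.3 to 43.7 CPM in the controls, 28.3 and 22.6 CPM in cisplatin 4 and 6, and had 2 and 0 counts in cisplatin 1 and 3. Of the 7 sex-linked genes listed, 3 had usable counts (Kdm5d, Eif2s3y and Ddx3x) and 0 passed in either direction by edgeR, as by DESeq2 and at an unadjusted p under 0.05.

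Arginine methyltransferases had 2 members that rose and 0 that fell among the 4 tested, where 26.4% and 22.6% of all genes did. Prmt6 (chr3:110246109-110250998), which adds asymmetric dimethyl marks that repress genes, measured 14.9, 17.9, 19.4 and 17.7 CPM in the controls and 28.7, 22.4, 34.1 and 45.1 CPM after cisplatin. The groups did not overlap and cisplatin 6 was highest, with a log2 fold change of 0.90 ± 0.23 (edgeR adjusted p = 0.00858), and of 0.50 in the first set alone (adjusted p = 0.0335, edgeR). An antisense gene on the other strand, C130013H08Rik, shares 23.5% of the exon bases of Prmt6, and since no source used here says whether counting took strand into account, reads of the pair cannot be told apart.

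Prmt7 (chr8:106210936-106252794), which adds monomethyl marks, measured 22.4, 23.0, 26.7 and 42.4 CPM in the controls and 54.2, 41.5, 55.3 and 53.6 CPM after cisplatin. It is the member that passed although its groups overlapped, since control 5 stood above cisplatin 3, and its log2 fold change was 0.84 ± 0.23 (edgeR adjusted p = 0.0122). Prmt9 stood at -0.07 ± 0.17 and Prmt3, which methylates a ribosomal protein, at -0.44 ± 0.20, neither passing by edgeR. Prmt3 did pass by DESeq2 (adjusted p = 0.0430). Prmt8, a gene of the brain, had 0 counts in all 8 libraries, which allows a level of up to 0.136 to 0.266 CPM by library, counting error only.

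Acetylation enzymes changed in 1 member on each side: 1 of 4 acetyltransferases rose and 1 of 4 deacetylases fell. Of all genes, 26.4% rose and 22.6% fell. Kat7 (chr11:95274259-95310246), an acetyltransferase known for its part in licensing replication origins, measured 91.6, 98.6, 85.1 and 72.6 CPM in the controls and 135, 145, 160.0 and 150.0 CPM after cisplatin. The groups did not overlap, and the log2 fold change was 0.76 ± 0.14 (edgeR adjusted p = 0.00174). Kat5, the catalytic subunit of the NuA4 complex that acts in DNA repair, measured 42.4 ± 3.15 CPM (SD, n = 4) in the controls and 41.1 ± 1.83 CPM after cisplatin, a log2 fold change of -0.04 ± 0.13. Ep300 and Crebbp, the paired coactivators, stood at -0.34 ± 0.20 and -0.53 ± 0.49 and did not pass.

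Hdac11 (chr6:91156665-91174692), the lone class IV deacetylase, which also removes fatty acyl groups, measured 37.2, 32.3, 41.1 and 58.0 CPM in the controls and 22.3, 24.6, 25.9 and 18.6 CPM after cisplatin. All cisplatin libraries were below all controls, control 5 being the highest of the 8, and the log2 fold change was -0.88 ± 0.21 (edgeR adjusted p = 0.00654). With total-library-size scaling it was -0.31 (adjusted p = 0.219, edgeR). Gm44002 on the opposite strand shares 15.4% of the exon bases of Hdac11, and the strand setting is not known. Hdac1, a core enzyme of the NuRD, SIN3 and CoREST corepressors, measured 102 ± 9.39 CPM (SD, n = 4) in the controls and 104 ± 5.79 CPM after cisplatin, a log2 fold change of 0.04 ± 0.13. Hdac10, known to act on polyamines, stood at -0.29 ± 0.18. Hdac9, a class IIa deacetylase, was low, at 2.83, 3.27, 2.12 and 1.42 CPM in the controls and 2.09, 1.38, 0.293 and 0.238 CPM after cisplatin, with 4 and 3 counts in cisplatin 4 and 6. Its -1.20 ± 0.62 did not pass (edgeR adjusted p = 0.133), while without cisplatin 1 it was -1.86 (adjusted p = 0.0367, edgeR).

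Smarcd3 was the SMARC gene that rose. Smarcd3 (chr5:24590818-24624411), a BAF subunit known from heart and muscle, measured 10.6, 13.7, 13.2 and 12.9 CPM in the controls and 25.1, 26.8, 21.96 and 19.9 CPM after cisplatin. The groups did not overlap, and the log2 fold change was 0.90 ± 0.17 (edgeR adjusted p = 0.00220). Chpf2 on the opposite strand shares 48.2% of its exon bases, so this value too is uncertain without the strand setting. Smarcc1, a scaffold of the BAF complex, stood at -0.28 ± 0.29, Smarcad1, which acts in DNA end resection, at -0.18 ± 0.20, and the X-linked ISWI ATPase Smarca1, at 1.02 to 5.23 CPM, at 0.50 ± 0.52.

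Brd2, a bromodomain reader of acetylated histones, rose. Brd2 (chr17:34112023-34122634) measured 421, 361, 438 and 341 CPM in the controls and 508, 545, 703 and 715 CPM after cisplatin. The groups did not overlap, and the cisplatin libraries of the second set were the highest. The log2 fold change was 0.66 ± 0.18 (edgeR adjusted p = 0.0121), while in the first set alone it was 0.32 (adjusted p = 0.0642, edgeR).

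**Figure D2:**
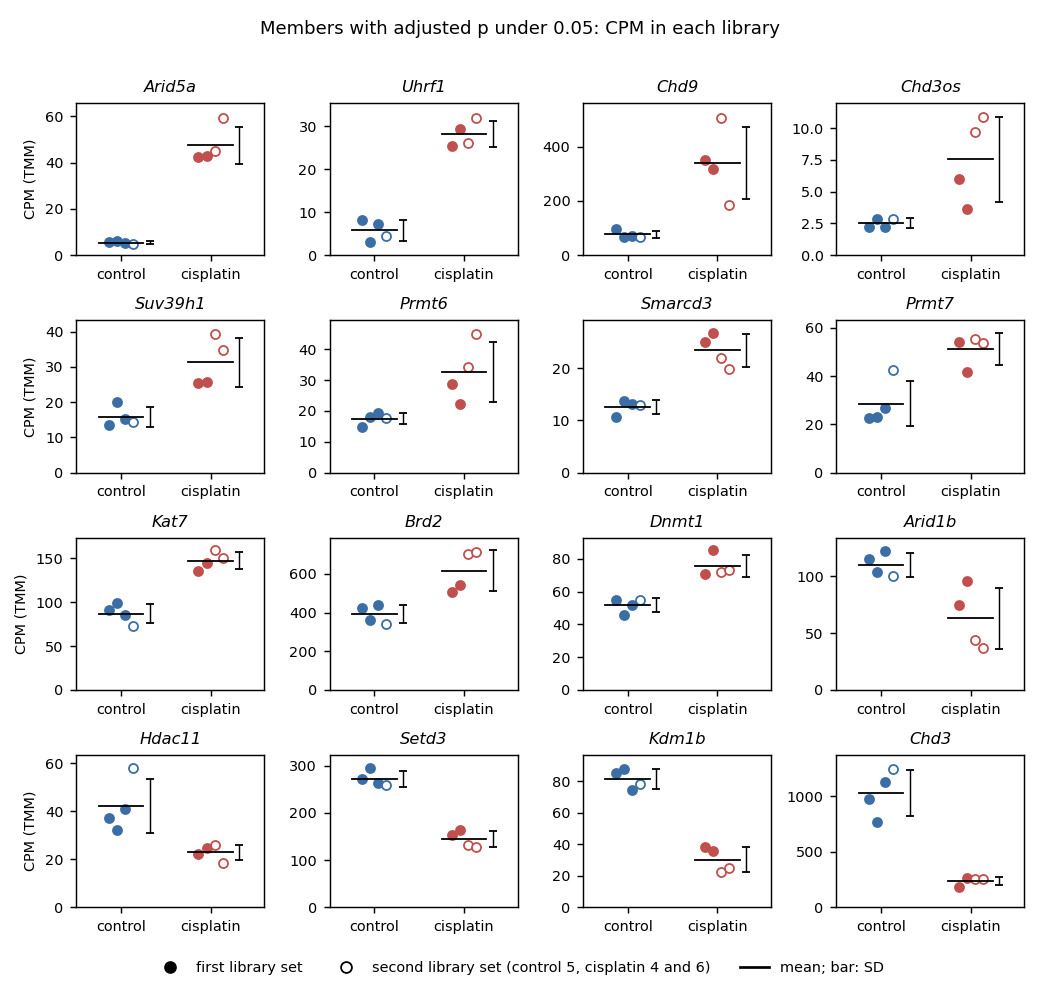
CPM (TMM-scaled, y axes from 0) of the 16 members with an edgeR adjusted p under 0.05 in each control and cisplatin library; filled points are the first set, open points the second set, lines the mean of 4 and bars the SD. The groups are apart in 15 panels, and in Prmt7 control 5 (42.4 CPM) stands above cisplatin 3 (41.5 CPM).

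Levels between genes were compared as CPM per kilobase of the length listed for each gene, which covers exons and not the genomic span. In controls Chd3 was the highest member, at 121.7 CPM per kilobase, ahead of Brd2 at 53.6, Chd4 at 47.7 and Setd3 at 45.2. After cisplatin the level of Chd3 was 28.1 CPM per kilobase, that of Setd3 23.9 and that of Brd2 84.8. The highest of the other classes in controls were Hdac1 at 29.5 CPM per kilobase, Kat5 at 21.1, Kdm4a at 17.5, Arid4a at 12.0, Smarcc1 at 11.7, Dnmt1 at 7.01 and Prmt7 at 4.67. Across the 55 tested members the level per kilobase in controls and the absolute log2 fold change had a Spearman rho of -0.28, a description only, since both come from the same libraries. Of the 2 members with the largest rises, Arid5a stood at 0.436 and Uhrf1 at 1.35 CPM per kilobase in controls, and Chd3, the highest in level, had the largest fall.

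The 2 sets of libraries differed in many members, in both groups. In 28 of the 55 members (50.9%) the second set was lower than the first in both the control and the cisplatin libraries, as were 33.7% of all genes tested. Crebbp is an example, at 159, 170, 195 and, in control 5, 59.8 CPM, and at 140, 170, 54.9 and 39.4 CPM in cisplatin 1, 3, 4 and 6. Control 5 was thus nearer to cisplatin 4 and 6 than to the other controls. Arid4a ran likewise from 69.3, 80.0 and 81.0 to 40.2 CPM in the controls and from 62.8 and 65.5 to 27.7 and 25.9 CPM after cisplatin, as did Chd6, Smarcc1 and Tet1.

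The length listed for each gene moved with this difference. It covers exons and not the genomic span, being 12600 bases for Arid1b at chr17:4994332-5347656. The members' listed lengths were large, with a median of 7285 bases against 3589 for all genes tested. Listed length and the second-minus-first difference had a Spearman rho of -0.40 across 55 members in the cisplatin libraries and -0.53 in the controls. Across all 9141 genes rho was -0.40 and -0.30. These values share libraries and are descriptive, and the part of length or of RNA quality in the results was not tested.

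**Figure D3:**
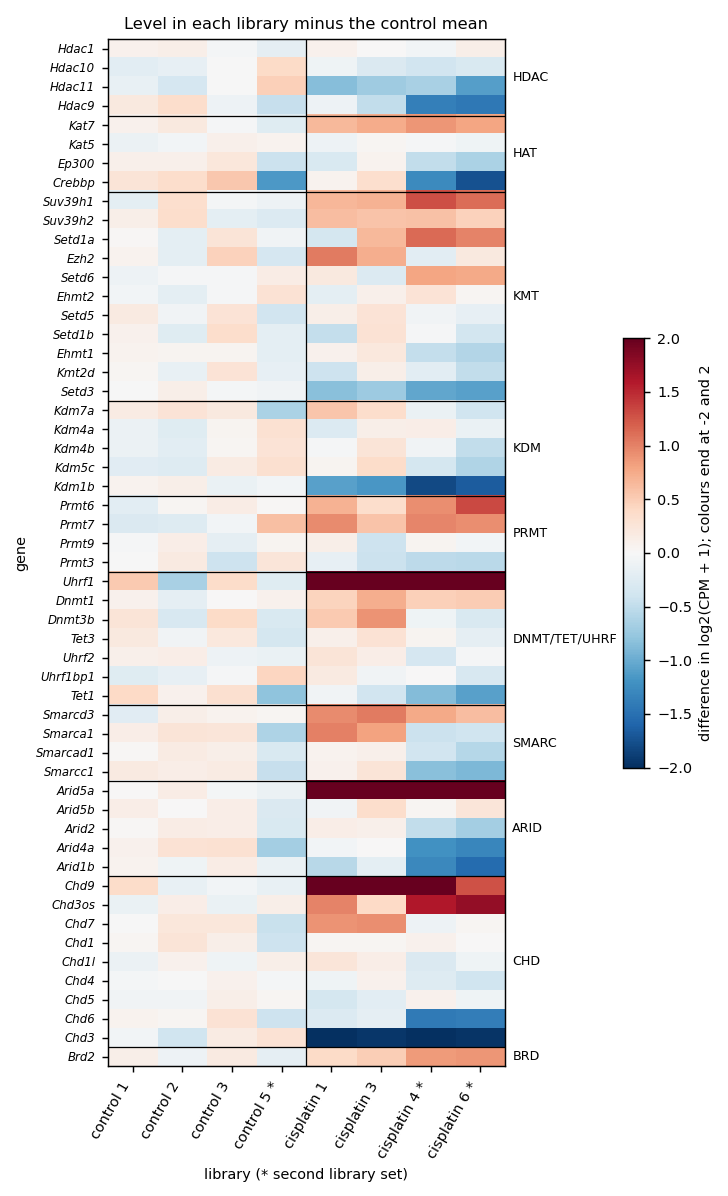
Difference of the members' log2(CPM + 1) in each library (columns, asterisks for the second set) from the mean of the controls (rows by class; red higher, blue lower, colours ending at -2 and 2). Arid5a and Uhrf1 are dark red and Chd3 dark blue in all 4 cisplatin columns, while Crebbp and Arid4a are clearly blue in control 5 and in cisplatin 4 and 6 and pale in cisplatin 1 and 3.

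More members passed when the sets were taken into account, as did more of all genes. The sets were drawn from the same values that were tested, so as a covariate they lower the remaining spread by construction. The adjusted p of these fits may therefore be too small, and the added members are a description only. With the library set as a covariate, 16 members rose and 8 fell, among them all 16 of the first count, where 32.1% and 28.7% of all genes did. The 8 added were Chd7 at 0.68, Ezh2 at 0.65, Smarca1 at 0.76, Suv39h2 at 0.80 and Kdm7a at 0.30, which rose, and Chd6 at -0.60, Arid4a at -0.37 and Hdac9 at -1.07, which fell. In the 5 libraries of the first set alone, 13 members rose and 8 fell, against 28.1% and 27.6% of all genes, and Brd2 was the 1 member of the 16 that no longer passed. The cisplatin libraries in this fit are cisplatin 1 and 3, which lack Y-linked counts, while controls 1, 2 and 3 have them. Treatment and the lack of Y-linked counts therefore cannot be told apart in it.

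Without cisplatin 1 and 3, the libraries that lack Y-linked counts, 13 members rose and 14 fell, against 29.0% and 28.1% of all genes, and all 16 stayed past the threshold. With that setting 7 members were called higher and 9 lower, where 21.4% and 20.5% of all genes were. Of the 11 added, Setd1a at 1.08 and Setd6 at 0.80 rose, and the others, among them Crebbp at -1.63, Chd6 at -1.44, Arid4a at -1.33 and Hdac9 at -3.13, fell. The cisplatin libraries left in this fit are both of the second set and 3 of the 4 controls are of the first, so the set and the treatment cannot be told apart in it.

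Among the 4 scalings, total library size moved the number of members that passed in each direction. With TMM, DESeq2 size factors and upper quartile scaling alike, 16 members passed. The TMM normalization factors were 0.785 to 0.854 in the controls and 1.15 to 1.32 after cisplatin. When libraries were scaled by their totals alone, the median log2 fold change of all genes moved from 0.08 to 0.65 and that of the members from -0.04 to 0.52, and 28 members rose and 2 fell where 47.8% and 11.9% of all genes did. Of these, 15 were called higher and 1 lower, where 34.7% and 8.78% of all genes were. Relative to the median of all genes the members stood at -0.12 under both, with 20 members above that median and 35 below it. Chd3 and Kdm1b fell, and Arid5a, Uhrf1, Chd9 and Chd3os rose, under each of the 4 scalings. Brd2, Kat7, Dnmt1, Prmt6, Prmt7, Suv39h1 and Smarcd3, which passed at 0.55 to 0.99 with TMM, stood at 1.12 to 1.54 with total library size.

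**Figure D4:**
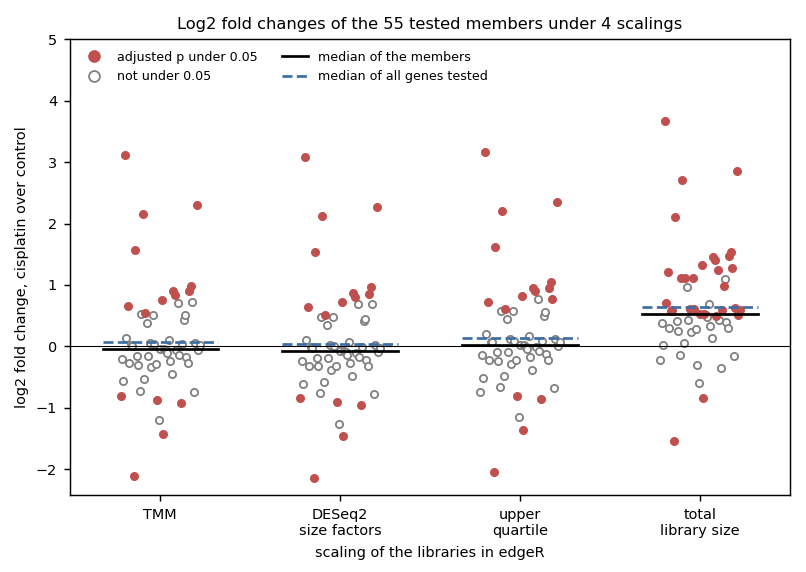
Log2 fold change of the 55 tested members (y axis) under 4 ways of scaling the libraries in edgeR (x axis), red where the adjusted p was under 0.05, with the median of the members (black) and of all genes tested (dashed blue). With total library size both medians move up, to 0.52 and 0.65.

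A further list held subunits of the same complexes that the symbol rule does not take. It also held other chromatin and DNA genes, such as Nsd2, Phf8, Riox2, Tdg and Ogt, and is called partner genes here. Of 126 listed partner genes, 55 had usable counts and were tested, of which 12 rose and 9 fell by edgeR. Over all genes tested, 26.4% rose and 22.6% fell. The median log2 fold change of the partner genes was -0.03, beside 0.08 for all genes. The highest were Phc2, a Polycomb repressive complex 1 subunit, at 98.9 ± 1.08 CPM (SD, n = 4) in the controls and 308 ± 49.0 CPM after cisplatin (log2 fold change 1.64), the CoREST subunit Rcor2 at 1.21 and the methyl-DNA-binding protein Mbd1 at 0.88. The lowest were Dpf3, a BAF subunit that reads histone marks, at 6.32 ± 1.004 CPM in the controls and 0.791 ± 0.634 CPM after cisplatin (-2.95), and Bcl7a and Bicral, also of BAF-type complexes, at -1.27 and -1.23. All 6 passed, with the highest edgeR adjusted p at 0.00347 for Rcor2.

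Markers of cell types and of injury moved with the same comparison. All 20 proximal tubule genes fell, with a median log2 fold change of -4.01 and a summed level of 2947 to 18000 CPM after cisplatin, and of 6 genes of the thick ascending limb and distal tubule 4 fell. Of 10 injured-tubule genes 9 rose, the sum of the list going from 1137 to 1234 CPM in the controls to 16450 to 31470 CPM. Spp1 alone made up most of that sum, at 900 to 1055 CPM against 8665 to 23830 CPM. Havcr1, which encodes the injury marker KIM-1, was at 1.29 to 5.66 CPM against 638 to 1097 CPM. Of 6 neutrophil genes 5 rose, with sums of 4.87 to 7.55 CPM and 14.8 to 26.8 CPM, and all 3 stroma genes rose, with sums of 70.4 to 252 CPM and 341 to 1569 CPM. Of 5 macrophage genes 2 rose and 1 fell, of 4 general leukocyte genes 2 fell, and of 6 T, B and NK cell genes 1 rose and 2 fell. Of 4 collecting duct genes 1 rose and 1 fell, of 5 endothelial genes 1 fell, and of 3 podocyte genes 0 passed by edgeR, as by DESeq2 and at an unadjusted p under 0.05. Of the listed markers with usable counts, 0 stood at 0 counts in all libraries. The part of cell makeup in the members' values was not tested.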

How the data were processed

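The authors trimmed reads with fastp, aligned them with HISAT2 to GRCm38 (submitters' processing notes) and deposited raw counts per gene for whole-kidney RNA. The counting tool, annotation release and strand setting are not given in the sources used here. The labels name a library kit that marks the second strand, and the paper names another. Rows with 8 counts (35880 of 53715) were used. The other 17835 rows held 10 values, could not be assigned to libraries and were left out, and the 2 extra columns without a name were not used. Totals therefore cover part of each library. Nothing states that molecular identifiers were used, so 3 counts as a floor (0.136 to 0.266 CPM) cover counting error only.

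Groups came from the labels, and the paper gives 4 mice a group. No 2 libraries of a group agreed within sampling noise (lowest chi-square per gene 16.0). In R 4.3.3, edgeR 4.0.16 (filterByExpr, TMM, quasi-likelihood test) compared cisplatin with control over 9141 genes with Benjamini-Hochberg adjustment. Passed means an adjusted p under 0.05, called that the log2 fold change was also 1 or more in size, and SE is the size of the log2 fold change divided by the square root of F. Steps were tested on simulated counts. Alternatives were DESeq2 1.42.0, other scalings and filters, a null hypothesis of a log2 change of 1 (glmTreat), a replicate block, the library set as covariate or the first set alone, removal of the cisplatin libraries without Y-linked counts, and each library left out in turn. The library set is the sign of the second principal component.

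The symbol rule, classes, partner genes, marker lists and motifs were chosen with earlier results of these data known. Full statistics were given for the highest and lowest member that passed in each class (mean of at least 1 CPM). They were also given for up to 10 called members with the largest change and no overlap. The X-linked member with a Y-linked partner, the member with the highest level per length in each class, and the 3 highest and 3 lowest partner genes were added. Other members, such as Chd4, Crebbp, Ezh2 and Suv39h2, and Mcm7, Havcr1 and Spp1 were picked once their values were known. All 56 members were found in GENCODE M21, 53 with the same coordinates and strand. Exon bases were shared with another gene in 22 members, and in 3 the share was at least 20%. Below that, the largest shares among members that passed were in Hdac11 (15.4%), Suv39h1 (14.55%) and Kdm1b (9.19%, with Dek), all with genes on the opposite strand. The values of 1 member are not reported here by name, and it is left out of the plots that name genes. Promoters are from RefSeq (GRCm38.p6).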

Additional observations from a re-analysis of the deposited data

Results flagged for a closer look

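A library was set apart where its gap to the nearest of the other 3 in its group, divided by the range of all 4, passed Dixon's 95% critical value for 4 samples. This was so in 8 of 110 groups of 4, and chance gives about 1 in 20 (5%). Arid5a measured 59.4 CPM in cisplatin 6 and 42.6 to 45.0 CPM in the other cisplatin libraries. Chd3 measured 180.0 CPM in cisplatin 1 and 250.0 to 262 CPM in the others, so the largest fall among the members was greatest there. Chd9 measured 97.4 CPM in control 1 and 67.7 to 72.4 CPM in the other controls. In cisplatin 3, Dnmt1 measured 85.7 CPM beside 70.9 to 73.4 CPM, and Prmt7 41.5 CPM beside 53.6 to 55.3 CPM. Control 5 held 3 of the 8: Kdm7a at 34.8 CPM beside 61.1 to 65.8 CPM, Ehmt1 at 52.9 CPM beside 62.9 to 64.0 CPM, and Smarcc1 at 65.3 CPM beside 98.6 to 101.7 CPM. In all 3 it was the lowest control, and it is the only control of the second library set.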

How the results depend on the processing

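Scaling by total library size moved most values: the members' median log2 fold change became 0.523, 28 members rose and 2 fell, and 15 were called higher and 1 lower, against 34.7% and 8.78% of all genes. Class medians became -0.007 for deacetylases, 0.375 for acetyltransferases, 0.616 for lysine methyltransferases, 0.512 for demethylases, 0.954 for arginine methyltransferases, 0.626 for DNA methylation, 0.747 for SMARC, 0.375 for ARID, 0.575 for CHD and 0.754 for BRD genes. Kdm4a (0.52), Kat5 (0.523), Uhrf1bp1 (0.517) and Prmt9 (0.497), just below 0 with TMM, then rose. This follows from the scaling itself, which moved the median of all genes to 0.645.

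The number that fell, 5, became 8 with the library set as covariate, 8 in the first set alone and 14 without the cisplatin libraries lacking Y-linked counts, where 7 were called higher and 9 lower and the medians of SMARC and ARID genes were -0.603 and -0.603. The deacetylase median, -0.584, was -0.411 in the first set alone, where the arginine methyltransferase median of 0.385 was 0.16, and -0.256 with at least 10 counts in every library, a filter that removed 1 member. The cause of the other moves was not tested. With each library left out in turn, 11 to 12 members rose and 4 to 7 fell, and 4 to 6 were called higher and 2 to 4 lower. Of all 9186 to 9231 genes tested in these fits, 1954 to 2485 rose and 1787 to 2155 fell. Called higher were 1559 to 1848 of all genes, and called lower 1351 to 1533. The members' median ran from -0.086 to 0.03. Without cisplatin 3, 4 members were called lower. Members that missed the threshold with all 8 libraries and passed by edgeR with 1 left out were Suv39h2 without control 2 (0.904), Prmt3 without control 3 (-0.582), Tet1 without control 5 (-0.981), Setd1a (0.945), Chd6 (-0.912) and Hdac9 (-1.86) without cisplatin 1, and Ep300 (-0.517), Setd6 (0.604) and Chd6 (-0.979) without cisplatin 3. The deacetylase median ran from -0.673 to -0.426 and the CHD median from -0.117 to 0.035.

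Controls and cisplatin libraries share the numbers 1 and 3 only, and no source says that a number pairs kidneys. Same-numbered libraries deviated together with r = 0.249 and 0.279, and differently numbered ones of the first set with 0.148 to 0.355. A fit with a replicate block takes the treatment effect from the libraries numbered 1 and 3, since every other number has a block term of its own. These libraries are all of the first set, and cisplatin 1 and 3 lack Y-linked counts. Treatment and that lack cannot be told apart in it. With the replicate block 13 members rose and 6 fell, where 2629 and 2269 of all 9141 genes did, and the deacetylase median was -0.3. Brd2 no longer passed (0.292, edgeR adjusted p = 0.169), and Chd6, Chd7, Ezh2 and Smarca1 did. DESeq2 passed 19 members, among them all 16. Those added were Chd6 at -0.769 (DESeq2 adjusted p = 0.0410), Prmt3 at -0.479 (0.0430) and Suv39h2 at 0.688 (0.0467). With DESeq2 size factors and with TMM without the most abundant genes, 16 passed, and with upper quartile scaling Arid1b did not (edgeR adjusted p = 0.0501). Of all genes, 2326 of 9141 rose and 2190 fell with those size factors. Without the most abundant genes, 2408 of 9124 rose and 2052 fell. Only 4 libraries a group limit what small changes can be seen, and a p that misses the threshold does not show that a gene was steady.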
